A study of Mus musculus with 42 samples.

Results

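Transcript counts of the integrin and laminin subunit genes were analysed in cells sorted as Thy1+ and c-Kit+ spermatogonia from control and Chd8 mutant mice. The libraries also held transcripts of genes used as markers of somatic testis cells, as given below. The members were taken by name alone, as every gene of the count table whose symbol begins with Itga, Itgb, Lama, Lamb or Lamc and ends in the number or letter of a subunit. They are 37 of 27179 genes, of which 26 encode integrins (18 alpha and 8 beta subunits) and 11 encode laminin chains (5 alpha, 3 beta and 3 gamma). Control mice were Ddx4-Cre; Chd8 +/F and mutant mice (conditional knockout, CKO) were Ddx4-Cre; Chd8 F/-, all of them C57BL/6J males at 10 days post-partum (dpp). Both genotypes carry a floxed allele and Cre under the control of the germ cell gene Ddx4, so that recombination is directed to germ cells, while the null allele of the mutants is present in somatic cells as well. The methods name testes of 3 pups per analysis, without saying whether these were pooled or gave 1 library each. Cells were dissociated, plated to remove somatic cells, and retained on magnetic beads, first with an antibody to c-Kit, a receptor of differentiating spermatogonia, and then, from the flow-through, with an antibody to Thy1, an antigen of undifferentiated spermatogonia. Each of the 4 groups has 3 RNA-seq libraries, and the ChIP-seq samples of the same series were not analysed here. The labels do not say whether libraries of a group came from separate animals, so p-values measure the spread between these libraries, which may be technical.

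Integrins are transmembrane receptors, each made of an alpha and a beta subunit, that tie the actin cytoskeleton to the extracellular matrix, and the pair decides which ligand is bound. Laminins are trimers of an alpha, a beta and a gamma chain and form the basement membrane together with type IV collagen, nidogen and perlecan. In the testis, spermatogonia and Sertoli cells rest on the basement membrane of the seminiferous tubule, to which both Sertoli cells and peritubular cells contribute, and the integrin of Itga6 and Itgb1 is widely used to enrich spermatogonial stem cells by their adhesion to laminin.

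Library totals ran from 32266861 to 45396233 counts. Expression is given as CPM, the count of a gene scaled to a common library total after TMM normalization of all 12 libraries, and as RPKM, which also divides by gene length, where different genes are compared. Counts were not assigned by strand and both reads of a fragment appear to have been counted, since 65.6% to 69.6% of the values from 1 to 19 were even. Chd8 had a mean of 269 and 274 CPM in control and mutant Thy1+ libraries and of 281 and 305 CPM in control and mutant c-Kit+ libraries, but only exons 11 to 13 are deleted, so gene-level counts do not check the genotype. The sorting antigens followed the labels in the controls, with Thy1 at 11.7 to 14.2 CPM in Thy1+ against 0.436 to 0.932 CPM in c-Kit+ libraries, and Kit at 171 to 393 CPM and 626 to 716 CPM. The Thy1+ libraries of replicate 1 stood apart by 10 Sertoli cell markers, whose summed level was 2511 CPM in control replicate 1 against 527 and 571 CPM in replicates 2 and 3, and 3327 CPM in mutant replicate 1 against 1062 and 1124 CPM. In c-Kit+ controls the sum was also highest in replicate 1, with 1772, 665 and 1212 CPM in replicates 1, 2 and 3. The c-Kit+ mutants had 2781, 2792 and 3077 CPM. Results are therefore also given without replicate 1 where that changes them.

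Itga6 and Itgb1, regarded as the integrin genes of germ cells, had positive log2 fold changes in mutant c-Kit+ cells. Those of all 9 germ cell markers were negative there, and those of all 10 Sertoli cell markers were positive. Itga6 (mm10, chr2:71787083-71856758), the alpha subunit of laminin receptors, had 69.4, 43.9 and 49.2 CPM in control c-Kit+ libraries (54.2 ± 13.4, SD, n = 3) and 73.9, 83.3 and 80.3 CPM in mutant c-Kit+ libraries (79.2 ± 4.80). All 3 mutant libraries lay above all 3 controls, control replicate 1 being close to them. Control replicate 1 was also the highest of these controls for the Sertoli markers, whose sum was likewise higher in every mutant library. The log2 fold change was 0.49 (SE 0.14, FDR = 0.0213, quasi-likelihood (QL) F test of edgeR, Benjamini-Hochberg adjusted), just under the minimum of 0.5 that a call required in addition to FDR under 0.05. In a blocked fit, which pairs libraries of the same number, Itga6 was called at 0.51 (FDR = 0.0125, same test). It was also called without control replicate 1 (0.70), without mutant replicate 1 (0.53), without replicate 1 of both genotypes (0.74) and when scaled by library size only (0.50). With any other library left out it was not called. Across the fits with 1 library left out, values ran from 0.36 to 0.70. Neither the edgeR exact test nor DESeq2 called it.

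In Thy1+ cells Itga6 had 109, 60.8 and 53.6 CPM in controls and 96.7, 53.8 and 48.7 CPM in mutants. The genotypes overlapped, and replicate 1 was the highest library of each, as it was for the Sertoli markers. The log2 fold change of -0.16 (SE 0.33) did not pass the test. Within each pair of the same number the mutant library was the lower, and the blocked fit gave -0.16 (SE 0.06, FDR = 0.0639, edgeR QL F test, Benjamini-Hochberg adjusted), which did not pass either. Without replicate 1 of both genotypes the value was -0.15, whereas leaving out 1 library of a pair changed the sign, to 0.22 without control replicate 1 and to 0.01 without mutant replicate 3. The germ cell list (Ddx4, Dazl, Dnd1, Sohlh1, Uchl1, Stk31, Mael, Sall4 and Zbtb16) summed to 2973 to 3463 CPM in c-Kit+ controls and 2475 to 2829 CPM in mutants, and to 2076 to 2892 CPM and 1516 to 2413 CPM in control and mutant Thy1+ libraries. In mutant c-Kit+ cells, 0 of its 9 genes were called, 9 had a negative log2 fold change and 8 had an unadjusted p under 0.05 by the edgeR QL F test, against 22.6% of all genes with a negative log2 fold change and such a p. By FDR alone 6 were lower, against 18.3% of all genes, whereas Itga6 was higher. The paper places Zbtb16 (Plzf) among the CHD8-bound genes that were lower in mutant Thy1+ cells. Fewer germ cells and less RNA of the listed genes per cell cannot be told apart here. The share of germ and Sertoli cells in the level of Itga6 was not tested.

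Itgb1, the beta subunit shared by most alpha subunits, had 359, 364 and 371 CPM in c-Kit+ controls and 485, 439 and 473 CPM in mutants, which did not overlap. Its log2 fold change was 0.29 (SE 0.06, FDR = 0.00288, edgeR QL F test, Benjamini-Hochberg adjusted), under the fold minimum. In Thy1+ cells it had 647, 543 and 601 CPM in controls and 776, 629 and 790 CPM in mutants, a log2 fold change of 0.30 (SE 0.12, FDR = 0.377, same test) that did not pass without the block. Each mutant library exceeded the control of its own number, and the blocked fit gave 0.30 (SE 0.05, FDR = 0.000429, same test), past the FDR threshold and under the fold minimum.

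**Figure D1:**
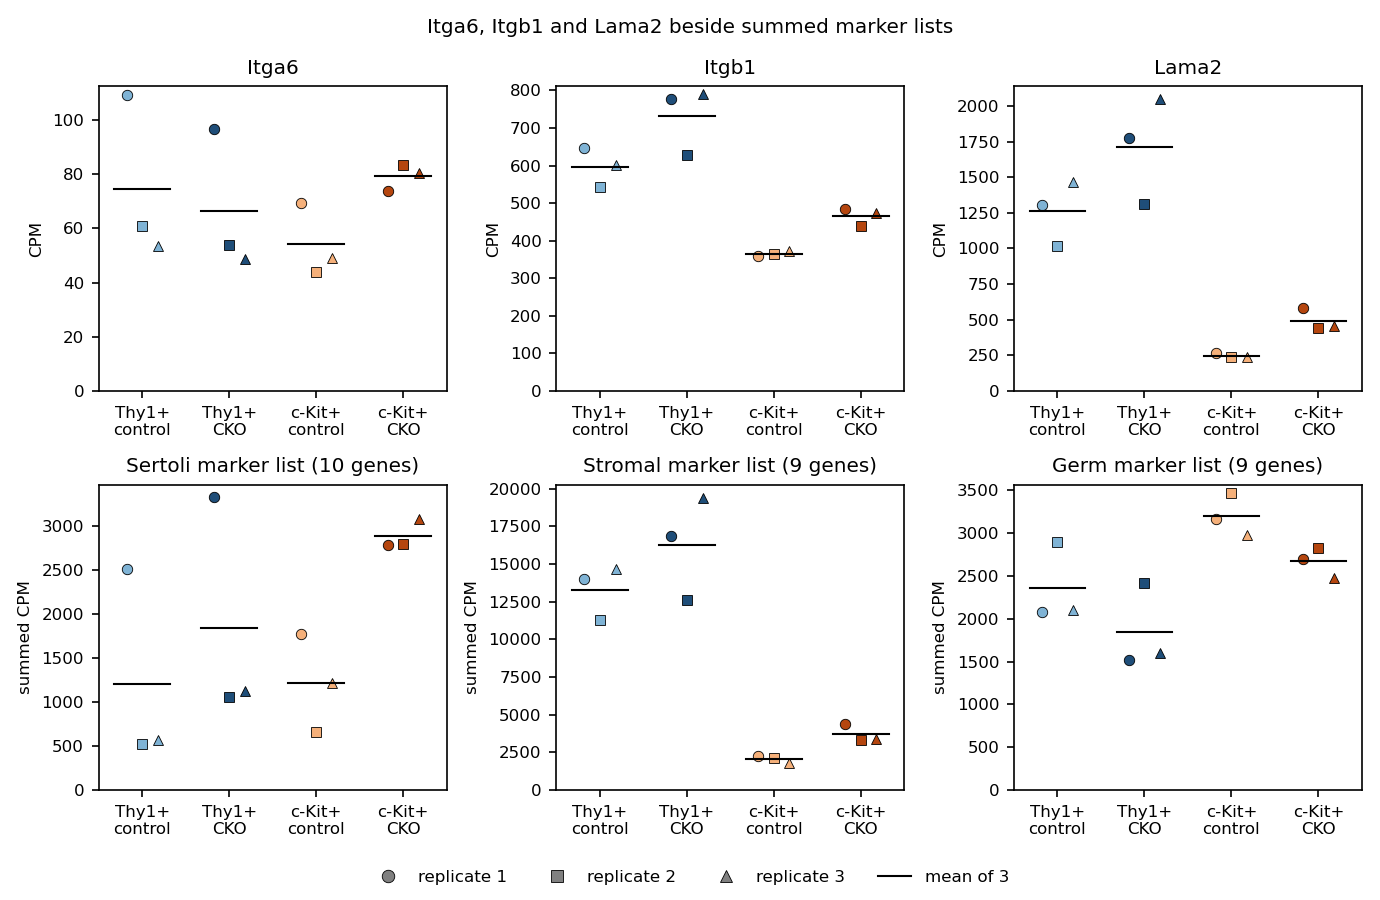
Levels per library of Itga6, Itgb1 and Lama2 (CPM, upper row) and summed CPM of the Sertoli, stromal and germ cell marker lists (lower row) in the 4 groups; symbols give the replicate number and bars the mean of 3 libraries. Itga6 and the Sertoli list were highest in replicate 1 of both Thy1+ groups (109 and 96.7 CPM for Itga6), while the stromal list was higher in every Thy1+ library (11258 to 19378 CPM) than in every c-Kit+ library (1827 to 4395 CPM).

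The promoters of 4 members on which the results below turn are shown as the 250 bases upstream of the annotated start. They are those of Itgb1, of the 2 beta subunit genes that rose in mutant c-Kit+ cells (Itgb5 and Itgb8), and of Itga4, an alpha subunit gene with one of the widest differences between the populations. Sequences are those of RefSeq on GRCm38.p6, given 5′ to 3′ on the strand of the gene, and no RefSeq exon lies in these windows. Capitals mark each GGGCGG (the GC box bound by Sp1 family factors) and each CCAAT on either strand, the reverse strand appearing as CCGCCC and ATTGG.
Itgb1, chr8:128685404-128685653, plus strand: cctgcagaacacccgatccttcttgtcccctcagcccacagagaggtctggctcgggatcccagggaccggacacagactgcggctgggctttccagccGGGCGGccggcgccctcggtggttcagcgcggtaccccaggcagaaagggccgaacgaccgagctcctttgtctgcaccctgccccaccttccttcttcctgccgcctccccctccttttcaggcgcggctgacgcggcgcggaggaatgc
Itgb5, chr16:33829415-33829664, plus strand: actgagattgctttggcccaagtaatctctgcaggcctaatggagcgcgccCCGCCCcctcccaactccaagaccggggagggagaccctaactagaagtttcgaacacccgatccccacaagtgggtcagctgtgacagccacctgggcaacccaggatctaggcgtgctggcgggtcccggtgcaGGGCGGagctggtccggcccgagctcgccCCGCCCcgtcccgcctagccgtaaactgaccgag
Itgb8, chr12:119238277-119238526, minus strand: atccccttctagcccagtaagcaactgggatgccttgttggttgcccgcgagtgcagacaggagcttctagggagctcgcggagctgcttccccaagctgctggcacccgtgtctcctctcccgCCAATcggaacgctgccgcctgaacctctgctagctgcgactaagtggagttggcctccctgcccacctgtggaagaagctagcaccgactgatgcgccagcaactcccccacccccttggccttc
Itga4, chr2:79255176-79255425, plus strand: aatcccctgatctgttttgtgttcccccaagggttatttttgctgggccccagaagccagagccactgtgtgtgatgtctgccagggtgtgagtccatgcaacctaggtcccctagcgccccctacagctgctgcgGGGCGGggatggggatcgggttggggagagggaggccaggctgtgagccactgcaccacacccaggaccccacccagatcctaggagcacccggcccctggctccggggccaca
Itgb1 and Itga4 each held 1 GGGCGG, Itgb5 held 3, and Itgb8 held none but 1 CCAAT, with no overlap between the motifs. The windows of Itgb1, Itgb5 and Itgb8 had 21, 18 and 12 CG dinucleotides and that of Itga4 had 6, which is also the median of all windows. Of 32851 RefSeq windows of the same length, 32.7% held GGGCGG and 33.8% held CCAAT on either strand. Of the 26 windows of the 23 members with an entry, 9 held GGGCGG and 4 held CCAAT. A match gives letters only, not a bound site.

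In c-Kit+ cells, 35 members could be tested between the genotypes and 15 were called, 13 higher and 2 lower in the mutants. The members called higher were Itga2, Itga5, Itga8, Itga9, Itga11, Itgb5, Itgb8, Lama1, Lama2, Lama4, Lamb1, Lamc1 and Lamc3, and those called lower were Itgb7 and Lama5. Over all 17134 genes tested, 14.8% were called higher and 7.41% lower (FDR below 0.05 and a log2 fold change beyond 0.5 in size), and 22.2% were called in either direction. The median log2 fold change was 0.53 over the 35 members and 0.01 over all genes. Mutant and control libraries did not overlap for 22 members that were higher and 3 that were lower in the mutants, against 31.6% and 20.6% of all genes. A further 5 members passed the FDR threshold with a log2 fold change under 0.5 (Itga6, Itgb1, Itgav, Itgb3 and Lamb2), all of them higher in the mutants, so that FDR alone would give 18 members higher and 2 lower, against 20.8% and 18.3% of all genes. The blocked fit added Itga4 and Itga6 and called 15 higher and 2 lower, against 15.8% and 7.51% of all genes.

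Among the integrins that bind RGD sequences, in fibronectin, vitronectin or the latency peptide of TGF-beta, 4 of 7 tested genes rose and 0 fell. Itgb8, which with the alpha subunit of Itgav activates latent TGF-beta, had 7.22, 5.0 and 4.88 CPM in controls and 19.1, 14.8 and 13.6 CPM in mutants. The groups were far apart, and at 1.41 (SE 0.19, FDR = 0.000469, edgeR QL F test, Benjamini-Hochberg adjusted; 2.67-fold) this was the largest log2 fold change of the 35 members. Itgb5, a partner of the same alpha subunit in vitronectin receptors, had 34.2, 26.3 and 27.9 CPM in controls and 48.0, 52.2 and 56.8 CPM in mutants, a log2 fold change of 0.77 (SE 0.11).

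Itga8, whose product binds nephronectin, was low, with 0.699, 0.829 and 1.19 CPM in controls and 1.77, 2.34 and 2.17 CPM in mutants, and had a log2 fold change of 1.15 (SE 0.30). Itga5, the alpha subunit of the fibronectin receptor, had 10.0, 10.0 and 12.2 CPM in controls and 17.8, 15.4 and 15.5 CPM in mutants. Its log2 fold change of 0.54 (SE 0.13) lay close to the minimum, and it fell under it without control replicate 1 (0.49), control replicate 2 (0.48) or mutant replicate 1 (0.46), and without replicate 1 of both genotypes (0.41). Itgav, the common alpha subunit of this class, had 35.0, 37.4 and 36.0 CPM in controls and 54.2, 49.2 and 50.2 CPM in mutants, without overlap. With 0.45 (SE 0.08, FDR = 0.00152, edgeR QL F test, Benjamini-Hochberg adjusted) it was not called, nor was Itgb3, its partner in another vitronectin receptor, with 0.38 (SE 0.12). Itgav was called in the fit of all 12 libraries (0.50, FDR = 0.0119, same test). Itga2b, the alpha subunit of platelets, had a log2 fold change of 0.26 (SE 0.26) and overlapping groups.

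Of the collagen receptors, 2 of 4 were called higher, both at a low level. Itga11, a receptor for fibrillar collagen on fibroblasts, had 2.07, 2.60 and 2.67 CPM in controls and 3.95, 4.14 and 4.46 CPM in mutants, a log2 fold change of 0.71 (SE 0.20). Itga2 had 0.524, 0.286 and 0.639 CPM in controls and 1.36, 0.973 and 1.07 CPM in mutants, a log2 fold change of 1.17 (SE 0.40). The call of Itga11 was lost without mutant replicate 3 (FDR = 0.0597, edgeR QL F test, Benjamini-Hochberg adjusted) and without replicate 1 of both genotypes (FDR = 0.0724). That of Itga2 was lost without any library but control replicate 3 (FDR from 0.0665 to 0.141, same test) and without replicate 1 of both genotypes (FDR = 0.171), and in the fit of all 12 libraries (1.22, FDR = 0.10). The values of Itga1 and Itga10 overlapped between genotypes, with log2 fold changes of 0.38 (SE 0.26) and 0.40 (SE 0.24).

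Itga9, which binds tenascin-C and other ligands, was among the clearest changes, with 57.8, 47.2 and 41.2 CPM in controls and 117, 85.0 and 93.1 CPM in mutants and a difference of 0.96 ± 0.14 on the log2 scale (SE; FDR = 0.000693, edgeR QL F test, Benjamini-Hochberg adjusted). Its relative Itga4, a receptor for VCAM-1 and fibronectin, had 5.39, 4.32 and 2.56 CPM in controls and 7.05, 6.94 and 5.90 CPM in mutants. The groups did not overlap, but 0.64 (SE 0.24, FDR = 0.0599, edgeR QL F test, Benjamini-Hochberg adjusted) was not called. Itga4 was called in the blocked fit (0.69, FDR = 0.0159, same test), without control replicate 1 (0.89), by the edgeR exact test (0.64, FDR = 0.0359) and by DESeq2 (0.63, FDR = 0.0345), as well as without a filter on counts and in the fit of all 12 libraries.

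Of the laminin receptors, 0 of 4 were called by the edgeR QL F test without the block. Besides Itga6, they are Itga3 with 17.5, 18.2 and 16.8 CPM in controls and 14.7, 16.4 and 15.7 CPM in mutants, Itga7, and Itgb4, the hemidesmosomal partner of the alpha subunit of Itga6. Itga3 had a log2 fold change of -0.22 (SE 0.10), with all mutant libraries under all controls, and Itga7 and Itgb4 each had one of 0.04 with overlapping groups. One gene of the class had an unadjusted p under 0.05.

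In the class of leukocyte integrins 1 of 7 was called, in the lower direction. Itgb7, the beta subunit of lymphocyte homing receptors, had 2.59, 3.26 and 3.54 CPM in controls and 1.30, 1.56 and 1.59 CPM in mutants, and its log2 fold change was -1.13 (SE 0.24, FDR = 0.00395, edgeR QL F test, Benjamini-Hochberg adjusted). The remaining 6 (Itgad, Itgae, Itgal, Itgam, Itgax and Itgb2) were not called, with log2 fold changes from -0.14 in Itgae to 1.05 in Itgb2. Itgam was called without control replicate 1 (1.33). A list of 7 lymphocyte markers summed to 4.60 to 6.56 CPM in c-Kit+ controls and 1.51 to 2.00 CPM in mutants, 3 of its genes could be tested, and 1 was called, lower. The part of these cells in the level of Itgb7 was not tested.

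Of 10 laminin genes tested, 6 rose and 1 fell in mutant c-Kit+ cells. The alpha chains went opposite ways. Lama2, the alpha chain of muscle and peripheral nerve, had 266, 241 and 238 CPM in controls and 580, 442 and 456 CPM in mutants, a difference of 0.93 ± 0.10 on the log2 scale (SE; FDR = 0.000215, edgeR QL F test, Benjamini-Hochberg adjusted). Lama1, a chain of embryonic and tubular basement membranes, had 64.3, 49.1 and 65.2 CPM in controls and 117, 119 and 127 CPM in mutants (log2 fold change 0.96, SE 0.10). Lama4, a chain of vascular basement membranes, had 28.1, 23.5 and 28.1 CPM in controls and 65.9, 50.4 and 55.9 CPM in mutants (log2 fold change 1.05, SE 0.11). In each of these 3 genes the lowest mutant library exceeded the highest control by more than the range of the controls.

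Lama5 (chr2:180176373-180225859), a widespread alpha chain of epithelial basement membranes, had 259, 224 and 238 CPM in c-Kit+ controls and 141, 160 and 166 CPM in mutants. Every mutant library lay under every control, and the log2 fold change was -0.68 (SE 0.08, FDR = 0.000285, edgeR QL F test, Benjamini-Hochberg adjusted; 1.61-fold lower). Lama3, the alpha chain of hemidesmosomal laminin, had a log2 fold change of 0.19 (SE 0.11) and was not called.

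Of the chains that complete the trimers, Lamb1 had 285, 252 and 241 CPM in controls and 546, 411 and 417 CPM in mutants (log2 fold change 0.76, SE 0.11). Lamc1, the gamma chain of most laminins, had 160, 133 and 139 CPM in controls and 281, 226 and 246 CPM in mutants (0.74, SE 0.09), and Lamc3 had 130, 101 and 99.9 CPM and 275, 207 and 186 CPM (0.96, SE 0.14). These 3 genes rose without overlap of the groups. Lamb2 had 154, 138 and 150 CPM in controls and 221, 187 and 209 CPM in mutants and remained under the fold minimum at 0.43 (SE 0.08, FDR = 0.00164, edgeR QL F test, Benjamini-Hochberg adjusted). Lamb3 was too low to be tested in c-Kit+ cells.

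**Figure D2:**
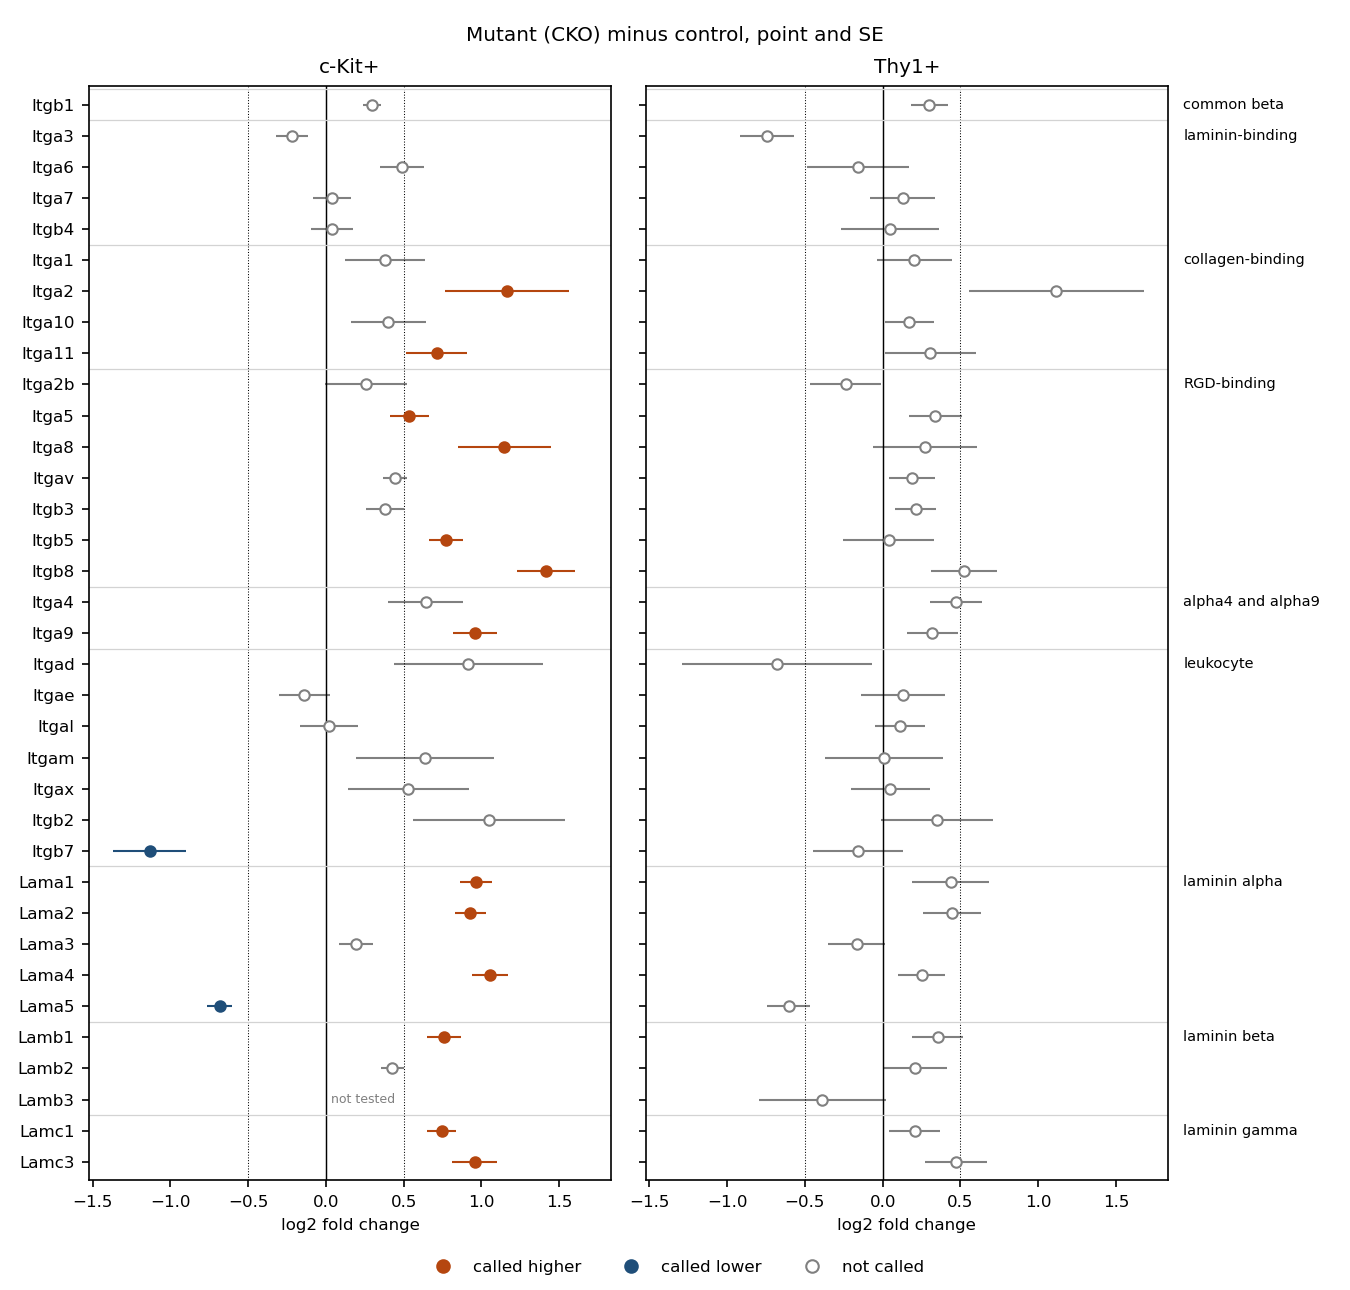
Log2 fold change of mutant over control with its standard error for 34 members in c-Kit+ (left) and 35 in Thy1+ cells (right), grouped by ligand class or chain; filled points were called by the edgeR QL F test without a block and dotted lines mark the fold minimum of 0.5. In c-Kit+ cells 13 members were called higher and 2 lower, and in Thy1+ cells 0 were called.

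A list of 49 partner genes was read from the same fit, with 28 genes of the adhesion complexes inside the cell and 21 of the basement membrane and other ligands. In mutant c-Kit+ cells, 6 adhesion complex genes rose and 0 fell, and 10 basement membrane and ligand genes rose and 1 fell, where 14.8% of all genes were called higher and 7.41% lower. With the fold minimum, the share of the adhesion complex genes was thus not far from that of all genes. By FDR alone, 16 of the 28 were higher and 2 lower, against 20.8% and 18.3% of all genes. The genotypes did not overlap for 20 that were higher and 1 that was lower, against 31.6% and 20.6%. Of those called, the largest increases were those of Ntn4 (netrin-4, which binds laminin; log2 fold change 1.18, SE 0.23), Col4a6 (a type IV collagen chain; 1.02, SE 0.13) and Parva (parvin, an actin-binding partner of integrin-linked kinase; 1.01, SE 0.09). Parva had 26.8, 25.7 and 25.0 CPM in controls and 58.7, 50.0 and 54.1 CPM in mutants. All 6 type IV collagen genes were called higher. The partner that fell was Npnt, which encodes nephronectin, the ligand of the integrin of Itga8, with 34.6, 38.4 and 38.1 CPM in controls and 29.4, 27.5 and 23.4 CPM in mutants (log2 fold change -0.53, SE 0.10). Npnt was not called without mutant replicate 3, which left 0 partners lower, and 2 partners were lower without control replicate 3. The median log2 fold change of the partners was 0.38.

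Most lists of somatic testis cell markers were higher in the mutant c-Kit+ libraries as well, where 14.8% of all genes were called higher and 7.41% lower. Of the stromal markers, 7 of 9 were called higher and the list summed to 1827 to 2291 CPM in controls and 3310 to 4395 CPM in mutants. For Sertoli cells these values were 9 of 10 genes, 665 to 1772 CPM and 2781 to 3077 CPM. For endothelial cells they were 7 of 8, 70.4 to 98.8 CPM and 130 to 204 CPM, and for peritubular myoid cells 3 of 6, 47.0 to 64.5 CPM and 92.5 to 113 CPM. Of the 6 peritubular markers, 2 had a negative log2 fold change. Leydig cell markers were called higher in 4 of 7 genes (643 to 1250 CPM and 1176 to 2033 CPM), macrophage markers in 1 of 9 (25.5 to 66.1 CPM and 63.0 to 89.4 CPM) and mast cell markers in 4 of 5 tested (36.2 to 49.1 CPM and 67.9 to 98.6 CPM). The macrophage count was under the share of all genes, while all 9 macrophage log2 fold changes were positive. None of these lists had a gene at 0 in the c-Kit+ groups, and 0 of their genes were called lower by the edgeR QL F test. Of the platelet markers, 0 of 2 tested were called higher and 1 lower (6.80 to 10.1 CPM and 5.73 to 8.23 CPM, with Ppbp at 0 in both genotypes). The erythroid list, with 5 of its 6 genes in the table and 1 tested, had 0 called, summed to 1.83 to 2.15 CPM and 2.40 to 3.01 CPM, and had Hbb-bs at 0 in the controls.

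By their sums, the stromal, peritubular, endothelial, Sertoli, Leydig, macrophage, mast cell and erythroid lists had the direction of the 13 members that rose. The lymphocyte, platelet and germ cell lists had the other direction, as did Lama5 and Itgb7. The part of these cells in the levels of the members was not tested. In bulk libraries, more cells of a type and more RNA per cell of that type cannot be told apart.

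In Thy1+ cells, 0 of 36 members and 0% of 17416 genes were called between the genotypes by the edgeR QL F test (Benjamini-Hochberg adjusted), with a lowest FDR of 0.141 over all genes. An unadjusted p under 0.05 was reached by 8 members, 5 higher and 3 lower in the mutants, and by 2151 genes, of which those higher were 4.66% and those lower 7.69% of all genes. The edgeR exact test and DESeq2 each called 2 members, Itga3 and Lama5, both lower. The shares of all genes called by these 2 tests were not computed, so these calls cannot be set against them. The paper, which used the exact test at the same thresholds, did call genes in mutant Thy1+ cells, more of them lower than higher. The QL F test without a block called 0 here. The blocked fit called 1 member higher (Itgb8) and 3 lower (Itga3 and Lama5 among them), against 3.20% and 4.92% of all genes. By FDR alone it gave 14 members higher (Itga4, Itga5, Itga9, Itgav, Itgb1, Itgb3, Itgb8, Lama1, Lama2, Lama4, Lamb1, Lamb2, Lamc1 and Lamc3) and 3 lower, against 15.6% and 13.6% of all genes. Libraries of the same number resembled each other more in Thy1+ than in c-Kit+ cells, and the block lowered the biological coefficient of variation from 20.9% to 8.30%.

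Lama5 had 141, 167 and 177 CPM in Thy1+ controls and 96.7, 124 and 97.2 CPM in mutants. The groups did not overlap, and its log2 fold change was -0.60 (SE 0.14, FDR = 0.229, edgeR QL F test, Benjamini-Hochberg adjusted) without and -0.61 (FDR = 1.4e-05) with the block. Itga3, the alpha subunit of a receptor for laminins with the Lama5 and Lama3 chains, had 19.7, 19.6 and 16.7 CPM in controls and 8.99, 12.6 and 11.6 CPM in mutants. It too had non-overlapping groups, with a difference of -0.74 ± 0.17 on the log2 scale (SE; FDR = 0.230) without and -0.75 (FDR = 0.00033) with the block in the same test.

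Itgb8 had 27.0, 17.0 and 22.7 CPM in Thy1+ controls and 37.6, 23.9 and 33.8 CPM in mutants. The ranges overlapped, yet each mutant library exceeded the control of its own number, and the log2 fold change was 0.52 both without (SE 0.21, FDR = 0.388) and with the block (FDR = 0.00023, edgeR QL F test, Benjamini-Hochberg adjusted). Lama2 (1303, 1020 and 1466 CPM in controls, 1774, 1315 and 2049 CPM in mutants) and Lamc3 (687, 532 and 787 CPM, then 1002, 680 and 1089 CPM) had log2 fold changes of 0.45 and 0.47, under the fold minimum in either fit, and passed the FDR threshold with the block. Mutant and control libraries did not overlap for 2 members that were higher (Itga2 and Itga4) and 3 that were lower in the mutants (Itga3 and Lama5 among them), against 6.51% and 10.7% of all genes. Of the 49 partners, 0 were called without the block. By the unadjusted p of the edgeR QL F test, 6 fell under 0.05. Of these, 5 were higher and 1 was lower, where 4.66% and 7.69% of all genes did so. The blocked fit called Col4a6 higher and Frem2, of the Fras1 complex of epithelial basement membranes, lower. None of the 11 cell type lists had a gene called between the Thy1+ genotypes by the edgeR QL F test without the block, while the blocked fit called 8 Sertoli, 2 macrophage and 1 each of the stromal, endothelial, mast cell, lymphocyte and erythroid markers higher, and 2 germ cell markers lower. The part of these cells in the Thy1+ values was not tested.

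**Figure D3:**
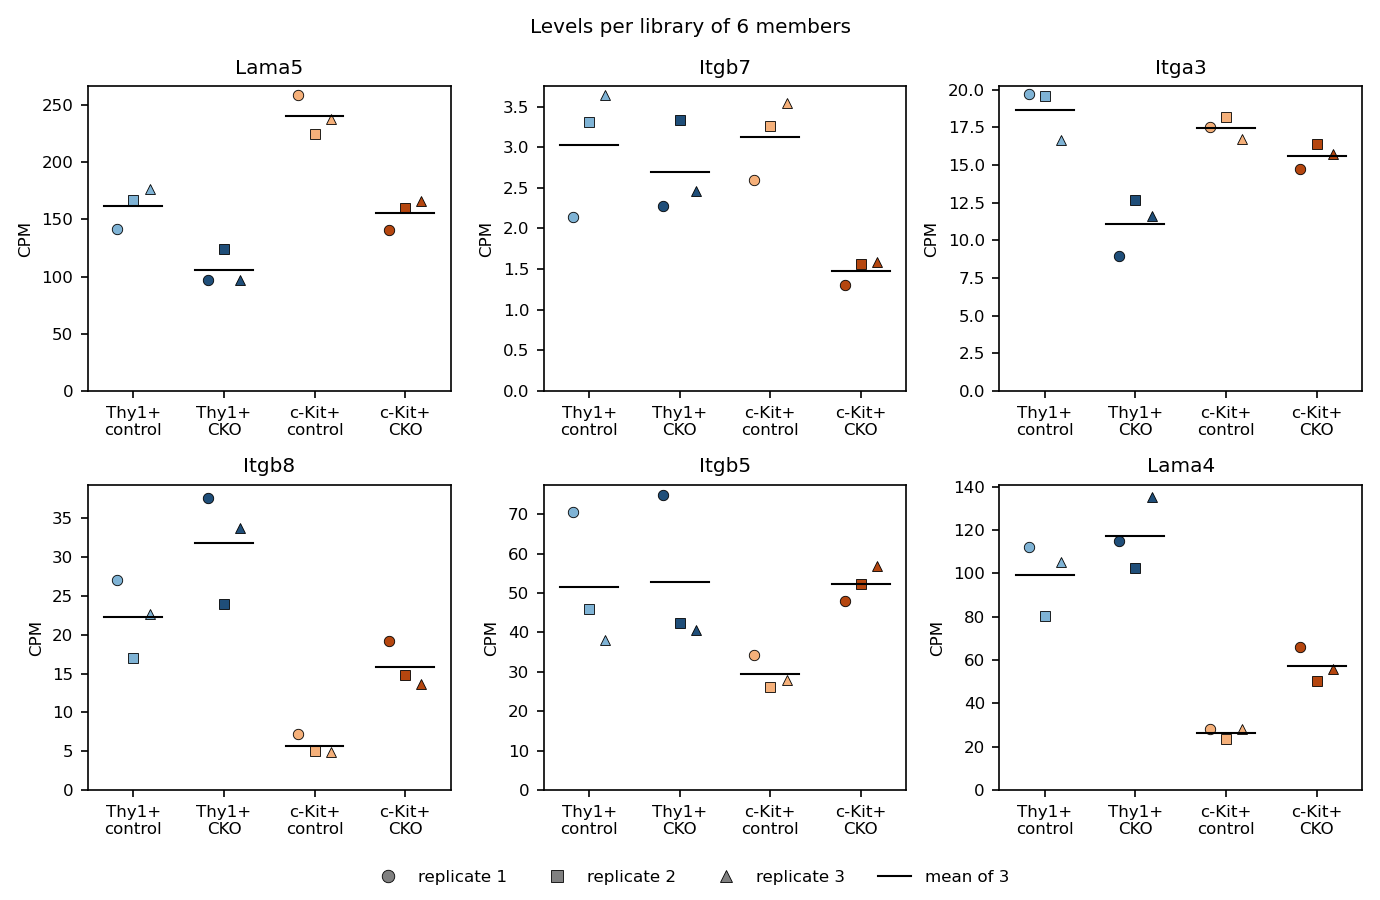
CPM per library of Lama5, Itgb7, Itga3, Itgb8, Itgb5 and Lama4 in the 4 groups; symbols give the replicate number and bars the mean of 3 libraries. Lama5 was lower in every mutant than in every control library of either population (96.7 to 124 against 141 to 177 CPM in Thy1+, 141 to 166 against 224 to 259 CPM in c-Kit+), whereas Itgb7 had non-overlapping genotypes in c-Kit+ cells alone.

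A fit of all 12 libraries tested whether the genotype effect differed between the populations. The difference (c-Kit+ minus Thy1+ effect) passed the test for 0 of 36 members and 0% of 18002 genes by the edgeR QL F test (Benjamini-Hochberg adjusted), while 8 members and 10.0% of all genes had an unadjusted p under 0.05. DESeq2 also called 0 members, and a replicate block, for which pairing was not met, called 3 higher (Itgb8, Lama4 and Lamc1) against 2.34% of all genes, and 0 lower against 0.133%. Itgb8 had a difference of 0.96 (SE 0.32), Lama4 of 0.87 (SE 0.21) and Itgb5 of 0.80 (SE 0.35), while Lama5 had -0.02 (SE 0.16) and Itgb1 0.06 (SE 0.13). That members were called in c-Kit+ and not in Thy1+ cells is thus not shown to be a difference between the populations.

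Most members were higher in Thy1+ than in c-Kit+ cells. The c-Kit+ controls of this comparison are also those of the genotype comparison. Of 36 members tested in the controls, 25 were higher in Thy1+ and 2 in c-Kit+ libraries, against 20.7% and 7.08% of 17350 genes (18.7% and 10.7% when scaled by library size only, which left the members at 25 and 2). The median log2 fold change (Thy1+ minus c-Kit+) was 1.22 for the members and 0.03 for all genes, and the groups did not overlap for 25 members higher in Thy1+ and 2 lower, against 29.5% and 24.8% of all genes. In the mutants, 23 were higher in Thy1+ and 2 in c-Kit+ libraries, against 15.3% and 5.03% of all genes.

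Itgb1 was 597 ± 52.1 CPM (SD, n = 3) in Thy1+ and 365 ± 6.26 CPM in c-Kit+ controls, a difference of 0.74 ± 0.09 on the log2 scale (SE; FDR = 0.000491, edgeR QL F test, Benjamini-Hochberg adjusted). Itga6 was not called, with 0.49 (SE 0.28, FDR = 0.199, same test) in the controls, or 0.44 (FDR = 0.0103) with the block, and -0.21 (SE 0.23) in the mutants, and its groups overlapped in both. Of the other integrins, 16 of 23 tested were higher in Thy1+ controls. The widest differences were those of Itga1, a receptor for collagen (2.96, SE 0.26), and Itga4 (2.95, SE 0.29), followed by Itgb2, the common beta subunit of leukocytes (2.80, SE 0.52), and Itga10 (2.74, SE 0.22). Itga1 had 33.5, 19.1 and 21.0 CPM in Thy1+ against 3.70, 3.26 and 2.67 CPM in c-Kit+ controls, so that the lowest Thy1+ library was several times the highest c-Kit+ library.

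By class, 6 of 7 RGD receptors, 3 of 4 collagen receptors, Itga4 and Itga9, and 4 of 7 leukocyte integrins were higher in Thy1+ controls. The laminin receptors were split, with Itga7, known from muscle, at 44.5 ± 11.2 CPM in Thy1+ against 11.4 ± 1.09 CPM in c-Kit+ controls (2.00, SE 0.19), and Itgb4 lower in Thy1+, with 5.10, 6.37 and 7.30 CPM against 11.2, 8.89 and 9.32 CPM (-0.63, SE 0.19). Itgb4 shares 9.55% of its exon bases with Galk1 and B230344G16Rik. Its call was lost without Thy1+ replicate 1 or any of the c-Kit+ libraries (FDR from 0.0611 to 0.0968, edgeR QL F test, Benjamini-Hochberg adjusted). The calls of Itga11 and Lamb3 were also lost in 5 and 4 of the 6 fits that left out a library, those of Itgb5 and Itgam in 2 each (without c-Kit+ replicate 2 or 3) and that of Lama1 without c-Kit+ replicate 2. Itgae was called (0.71) without Thy1+ replicate 1. Without replicate 1 of both populations, the calls of Itga11 (0.75, FDR = 0.169, edgeR QL F test, Benjamini-Hochberg adjusted), Itgb4 (-0.41, FDR = 0.183) and Lamb3 (1.89, FDR = 0.110) were lost and Itgae was called (0.77, FDR = 0.0304).

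Of the laminins, 8 of 11 were higher in Thy1+ controls and 1 was lower. Lamc3 was 668 ± 128 CPM in Thy1+ against 110 ± 17.2 CPM in c-Kit+ controls (2.63, SE 0.17), Lama2 was 1263 ± 226 and 248 ± 15.0 CPM (2.37, SE 0.14), and Lamb1 was 1120 ± 166 and 259 ± 22.9 CPM (2.14, SE 0.13). Lama5 went the other way, with 162 ± 18.3 CPM in Thy1+ against 240 ± 17.3 CPM in c-Kit+ controls (-0.55, SE 0.10, FDR = 0.00404, edgeR QL F test, Benjamini-Hochberg adjusted). Without Thy1+ replicate 1, Lama5 fell just short of the fold minimum (-0.48), and 0 members were called lower. The same held without replicate 1 of both populations (-0.43). Leaving out any of the c-Kit+ libraries left 1 member lower. Lama5 was also lower in Thy1+ than in c-Kit+ mutants (-0.51, SE 0.12), as was Lama3 (-0.68, SE 0.13). The number of members lower in Thy1+ mutants was 4 without Thy1+ replicate 2, and 1 without Thy1+ replicate 3 or c-Kit+ replicates 2 or 3. It was 3 without replicate 1 of both populations.

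**Figure D4:**
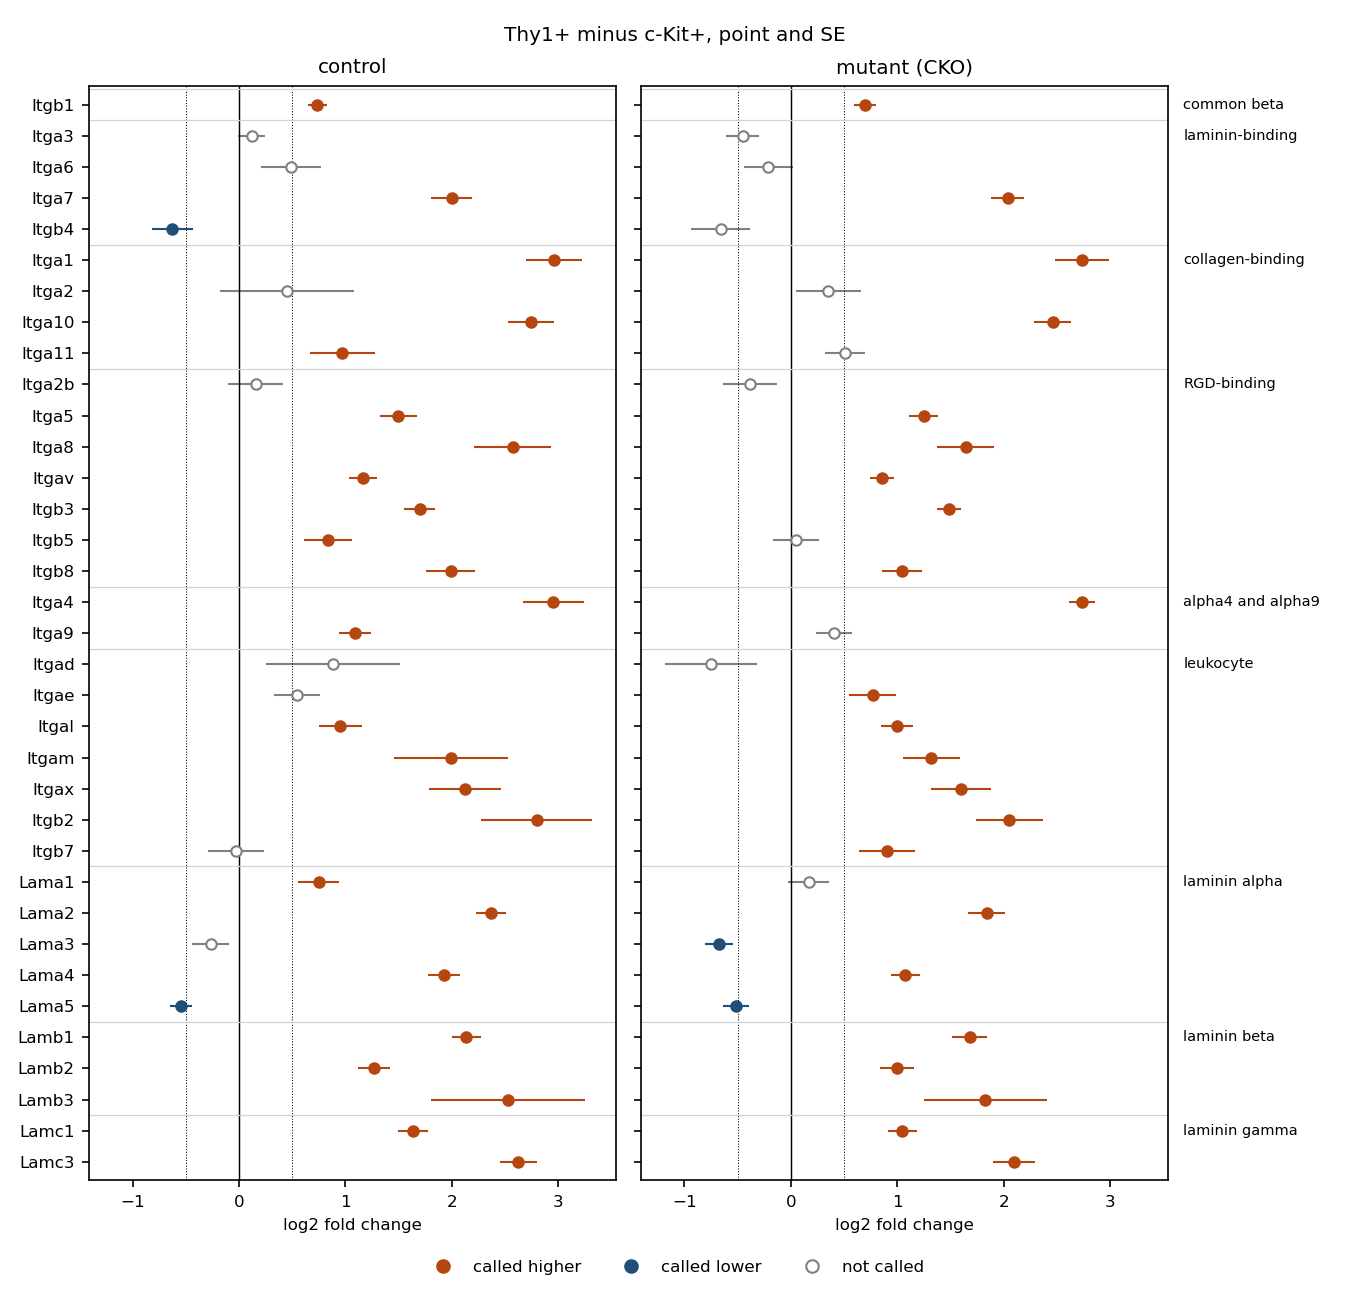
Log2 fold change of Thy1+ over c-Kit+ with its standard error for 35 members in control (left) and mutant cells (right), grouped as in the plot of the genotype effects; filled points were called. In the controls 25 members were higher in Thy1+ and 2, Itgb4 and Lama5, were lower.

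Of the partners, 31 of 49 were higher in Thy1+ controls and 1, Npnt (-1.05, SE 0.28), was lower. Of those called, the largest differences were those of Vtn, the ligand vitronectin (3.74, SE 0.47), Lims2, a component of the complex of integrin-linked kinase (2.82, SE 0.18), and Fblim1, an adaptor at cell-matrix adhesions (2.58, SE 0.15). Npnt was not called without c-Kit+ replicate 2, and 2 partners were lower without Thy1+ replicate 2. Cell type markers differed as well in this comparison, with 9 of 9 stromal, 8 of 9 macrophage, 5 of 6 peritubular myoid, 4 of 8 endothelial, 4 of 7 lymphocyte and 1 of 2 tested platelet markers higher in Thy1+ controls, 5 of 7 Leydig and 4 of 5 tested mast cell markers lower, 0 of 10 Sertoli and 0 of 2 tested erythroid markers called, and 1 germ cell marker higher and 2 lower. The stromal list summed to 11258 to 14676 CPM in Thy1+ against 1827 to 2291 CPM in c-Kit+ controls, with no marker at 0. The part of stromal cells in the Thy1+ level of the members was not tested.

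Compared per length, Itgb1 was the main beta subunit in every library. It made up 83.1% ± 1.69 (SD, n = 3) of the summed RPKM of the 8 beta subunit genes in control and 79.2% ± 0.681 in mutant c-Kit+ libraries, and 78.5% ± 1.16 and 79.6% ± 1.67 in control and mutant Thy1+ libraries. Itgb5 came next in c-Kit+ libraries, with 8.56% ± 1.16 in controls and 11.4% ± 1.13 in mutants. Itga6 was the largest of the 18 alpha subunit genes in c-Kit+ libraries, with 32.5% ± 4.62 of their RPKM in controls and 33.0% ± 3.25 in mutants, ahead of Itga9 with 17.4% ± 1.31 and 24.2% ± 3.13. The share of Itga6 was lower in Thy1+ libraries, 20.9% ± 4.76 in controls and 17.3% ± 5.02 in mutants, where Itga9 had 17.5% ± 2.33 and 19.8% ± 3.10 and the 2 genes did not differ beyond their spread. These shares were not tested.

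The laminin chains differed in make-up between the populations. Lama2 held 74.9% ± 1.95 of the summed RPKM of the alpha chains in control and 79.5% ± 2.38 in mutant Thy1+ libraries, against 42.7% ± 1.59 in control and 56.3% ± 3.80 in mutant c-Kit+ libraries. Lama5 held 35.2% ± 0.0112 in control and 15.4% ± 2.42 in mutant c-Kit+ libraries, and 8.35% ± 1.73 and 4.41% ± 1.58 in control and mutant Thy1+ libraries. In mutant c-Kit+ cells the share of Lama5 thus came close to that of Lama1, 14.2% ± 1.55, which was 10.4% ± 1.16 in the controls. Among the beta chains Lamb1 was ahead of Lamb2 throughout, with 63.1% ± 1.85 and 36.8% ± 1.77 in control c-Kit+ libraries. Of the gamma chains, Lamc3 exceeded Lamc1 in Thy1+ controls (65.8% ± 2.08 and 33.8% ± 2.01), whereas both were near each other in c-Kit+ controls (48.8% ± 1.72 and 49.9% ± 1.39).

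**Figure D5:**
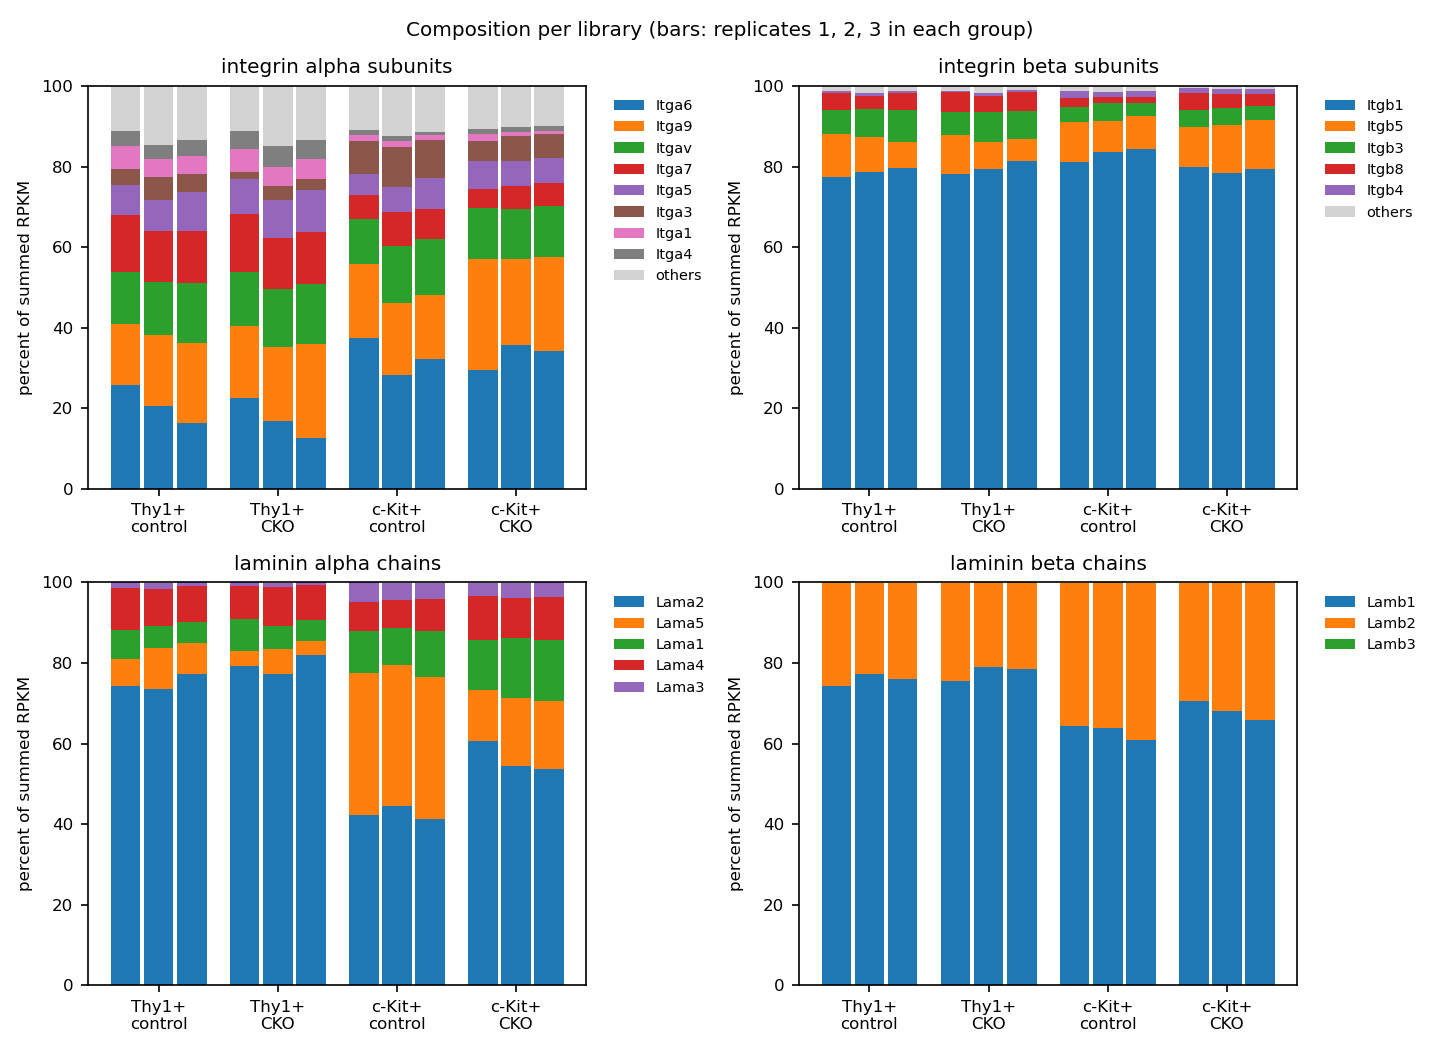
Share of each gene in the summed RPKM of its family, per library, for integrin alpha and beta subunits and laminin alpha and beta chains, with replicates 1, 2 and 3 side by side in each group. Itgb1 took 77.3% to 84.4% of the beta subunits in every library, and Lama5 took 35.2% of the alpha chains in control and 12.6% to 16.8% in mutant c-Kit+ libraries.

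Some members were near the limit of these libraries. Itgb6, the epithelial partner of Itgav, had counts in 2 of 12 libraries, 2 counts in each, and was tested nowhere. Lamb3 ran from 0.0572 to 0.465 CPM in c-Kit+ and from 0.549 to 1.36 CPM in Thy1+ libraries. Itgad, which shares 9.56% of its exon bases with Cox6a2 and 4931431B13Rik, ran from 0.175 to 0.868 CPM in all libraries. The leukocyte genes Itgax and Itgb2 reached 2.08 and 5.51 CPM at most, and their exons overlap those of no other gene in the table.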

How the data were processed

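RNA-seq libraries of Thy1+ and c-Kit+ cells were analysed, 3 for each genotype and population. The authors trimmed reads with Trimmomatic (0.39), aligned them to mm10 with HISAT2 (2.1.0) and counted them per RefSeq gene with featureCounts (2.0.3 in the file header), and deposited these unnormalized counts. The library kit keeps strand, but counting was not set to use it, so strand did not separate reads in bases that genes share. How reads in such bases were counted is not stated. Of 27179 Entrez identifiers, 25275 were given a symbol and 1904 were not.

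Counts were tested with edgeR (4.0.16, R 4.3.3, limma 3.58.1), using TMM factors, filterByExpr and the quasi-likelihood F test (two-sided). Each comparison was fitted on its 6 libraries and adjusted over all genes tested, and a call required FDR below 0.05 together with a log2 fold change beyond 0.5 in size. The interaction was fitted on 12 libraries, with FDR alone. CPM and RPKM were computed with TMM factors of 12 libraries and the deposited gene lengths. The procedure was tested on simulated data. DESeq2 (1.42.0), the edgeR exact test, other scalings and filters, a replicate block and the omission of each library served as alternatives.

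Replicate numbers were taken to pair libraries where every same-numbered pair of deviations from the group means correlated by over 0.1. This was so for genotypes in c-Kit+ (0.101 to 0.125) and Thy1+ cells (0.266 to 0.490) and for the control populations (0.134 to 0.298), but for 1 of 3 pairs in the mutant populations and 10 of 18 in the interaction. One member entered all counts but is not reported here. The other members were named, as were Chd8, Thy1 and Kit and, of the partners called, up to 3 in each direction per comparison, by the size of the fold change. Members, partners and cell type markers (of germ, Sertoli, Leydig, stromal, peritubular myoid, endothelial, erythroid, platelet, lymphocyte, mast and macrophage cells) were chosen with earlier results of these data known.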

Additional observations from a re-analysis of the deposited data

How the results depend on the processing

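Fold changes of members were counted once per comparison and alternative. Over the alternatives other than leaving out libraries, 928 kept their direction and side of the threshold, 23 passed it where they had not, 2 no longer passed it and 2 changed sign. With a library left out, or replicate 1 of both groups, these numbers were 678, 7, 35 and 28. For most of these the cause was not tested. In Thy1+ cells, 2 members were lower in the mutants by the edgeR exact test, by DESeq2 and in the fit of all 12 libraries. The shares of all genes called in these 3 settings were not computed. The replicate block called 1 member higher and 3 lower there, with 1 partner higher and 1 lower, and it called 3 members higher in the interaction, where numbers were not taken to pair libraries. In c-Kit+ cells the block added Itga4 and Itga6, and it lost no call of a member there and changed none between the control populations. The fit of all 12 libraries left 0 partners lower in c-Kit+ cells, and without a minimum on the fold change 28 were higher and 5 lower. Between the control populations, partners lower in Thy1+ numbered 2 when scaled by library size only and 3 without a fold minimum, and 1 member was lower in the fit of all 12 libraries. Members called higher in mutant c-Kit+ cells ranged from 11 to 14 with a library left out. Members higher in Thy1+ than in c-Kit+ cells then ranged from 20 to 24 in controls, under the 25 of the full fit, and from 20 to 23 in mutants. With a library left out, members lower in Thy1+ ranged from 0 to 2 in controls and from 1 to 4 in mutants, and lower partners from 0 to 2 in c-Kit+ cells and from 0 to 2 between the control populations. Signs changed for Itgam (-0.027, library size only) and Itgb4 (-0.014, block) in the Thy1+ genotype comparison, and, without replicate 1 (an alternative chosen after seeing the data), for Itgb5 there (-0.012) and Itgb7 between control populations (0.03). With a library left out, signs changed in c-Kit+ cells for Itga2b (-0.015 to 0.41), Itga7 (-0.0063 to 0.12), Itgal (-0.11 to 0.18) and Itgb4 (-0.032 to 0.14). In Thy1+ cells they changed for Itga6 (-0.53 to 0.22), Itga7 (-0.036 to 0.35), Itgad (-1.01 to 0.15), Itgae (-0.083 to 0.31), Itgam (-0.33 to 0.23), Itgax (-0.069 to 0.15), Itgb4 (-0.35 to 0.29) and Itgb5 (-0.30 to 0.33), and between control populations for Itga2 (-0.089 to 0.85), Itga2b (-0.054 to 0.32) and Itgb7 (-0.22 to 0.15). None of these had been called.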
